A study of Sus scrofa with 4 samples.

Results

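Hypoxia-high cells were the cells of porcine pancreatic ductal organoids (PPDO) with the highest joint expression of 6 genes of the hypoxia response, ADM, VEGFA, EGLN1, NDRG1, BNIP3 and PDK1. They numbered 2434 of the 16222 PPDO cells kept, in a series with 32580 barcodes. Each cell was scored by the mean of ln(1 + UMIs per 10000 UMIs) of the 6 genes, where a UMI (unique molecular identifier) marks 1 captured molecule, and the highest 15% of each library were taken. This gave 1333 of 8885 cells in PPDO 1 and 1101 of 7337 cells in PPDO 2. The name rests on these transcripts, since no oxygen measurement was analysed here.

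The series compared 2 PPDO libraries with 2 libraries of dissociated primary pancreas of the pig by droplet single-cell RNA sequencing. PPDO are epithelial organoids that grow in basement membrane extract from ducts picked by hand. The study took its PPDO lines from a late postnatal and an adult pig at different passage, and each library is 1 line of 1 pig. The ages by which its filter text names the libraries both fall in its late postnatal range, so the age of each line is not settled here. Which PPDO library holds which line is not given in the labels, nor is the genotype of the donor pigs. Both lines were kept in a complete medium with FGF10, EGF, gastrin, prostaglandin E2, nicotinamide, N-acetylcysteine, the TGF-beta receptor inhibitor A83-01 and the ROCK inhibitor Y-27632. The WNT3a, R-spondin 1 and noggin of this medium were replaced, for maintenance, by an L-WRN conditioned medium supplement. No PPDO library was labelled as grown at another oxygen level, so hypoxia-high cells could be compared only with the other cells of the same culture and with primary pancreas. Primary pancreas came from late postnatal pigs, processed on separate days. Primary pancreas 1 held hand-picked ducts of a wild-type pig. Primary pancreas 2 came from an INS-eGFP pig, in which the insulin promoter drives eGFP in beta cells, with sorted duct cells and INS-eGFP cells added to the whole suspension. This order assumes that the replicate numbers of the labels are the sample numbers of the study. The features of eGFP and other transgenes together held 164 UMIs in primary pancreas 1 and 10390 UMIs in primary pancreas 2, so the library called wild-type here was not free of such UMIs.

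Cells sense oxygen through prolyl hydroxylases such as EGLN1 and EGLN3, which mark the alpha subunits of hypoxia-inducible factor (HIF) for breakdown through VHL while oxygen is present. When oxygen falls, HIF is stable and raises genes of glucose use, vessel growth, pH control, matrix modification and mitophagy, and also EGLN1 and EGLN3 themselves. Several of these genes respond to growth factors and to nutrient stress as well, so their transcripts report on the programme and not on oxygen itself. In pancreatic duct epithelium the programme is best known from ductal tumours, which are poor in vessels.

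The score formed a continuum without a gap at the threshold, as the histogram of scores shows. The last cell inside the threshold scored 1.96334 in PPDO 1 and 1.6897 in PPDO 2, and the cell next to it on the outside scored 1.96329 and 1.6889. The median score was 2.26 in hypoxia-high cells against 0.696 in the other cells of PPDO 1, and 1.95 against 0.695 in PPDO 2. Levels are given in CPM, the usual scaling of the UMIs of a gene by all UMIs of the same cells. The 50 cells just inside and the 50 just outside differed little, with ADM at 539 and 516 CPM in PPDO 1 and at 503 and 424 CPM in PPDO 2. Cells next to each other in score rank have near-equal values by the rule, so these values do not show whether the class is a separate state.

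**Figure D1:**
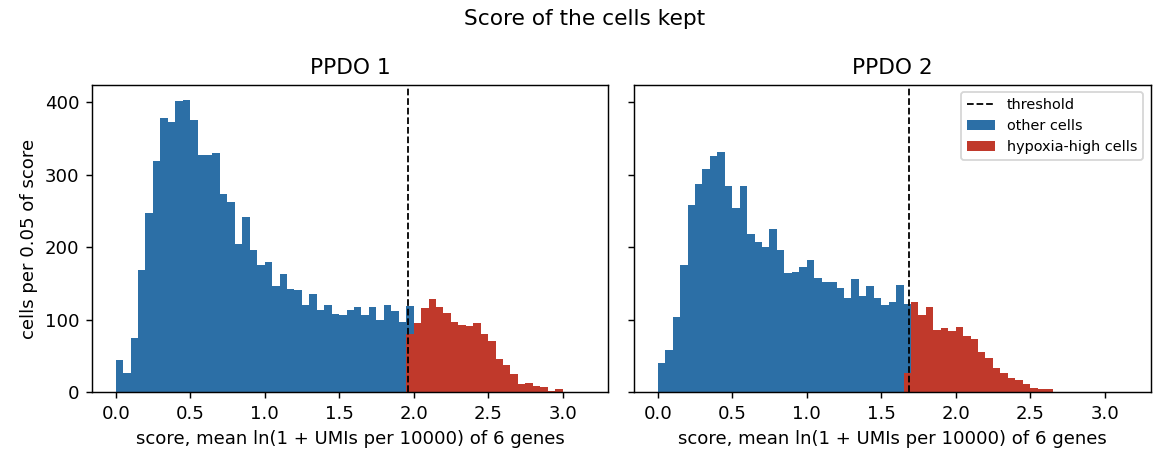
Number of cells (y axis, per 0.05 of score) by score (x axis, mean ln(1 + UMIs per 10000) of 6 genes) in PPDO 1 and PPDO 2, with hypoxia-high cells in red, other cells in blue and the threshold dashed. Each library has a peak at low scores and a long shoulder, and the threshold lies within the shoulder, at 1.96334 and 1.6897.

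Of the 6 genes, ADM encodes adrenomedullin, a vasodilator peptide, and lies on chromosome 2 from 49229223 to 49231521. VEGFA encodes the main growth factor of blood vessels and lies on chromosome 7 from 38746393 to 38762282. EGLN1, the prolyl hydroxylase that senses oxygen, spans 59113527 to 59168421 on chromosome 14. NDRG1, a stress-responsive gene of differentiation, spans 8014445 to 8069335 on chromosome 4. BNIP3, a mitochondrial protein that recruits the autophagy machinery, spans 140362123 to 140371951 on chromosome 14. PDK1, the kinase that keeps pyruvate dehydrogenase inactive, spans 78608394 to 78650958 on chromosome 15. Positions are those of RefSeq on Sscrofa11.1, the pig build named in the submitters' processing notes, and the authors counted against an annotation of their own.

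Counts were summed over hypoxia-high cells and over the other cells of each library, which gave 4 sums. ADM stood at 939 CPM in hypoxia-high and 73.9 CPM in other cells of PPDO 1, and at 694 and 90.3 CPM in PPDO 2. EGLN1 stood at 1010 and 124 CPM in PPDO 1 and at 600 and 123 CPM in PPDO 2. The other cells of both libraries were thus alike for EGLN1, while hypoxia-high cells of PPDO 1 had more. BNIP3 stood at 3985 and 668 CPM in PPDO 1 and at 1918 and 406 CPM in PPDO 2. NDRG1 stood at 2284 and 369 CPM in PPDO 1 and at 2218 and 461 CPM in PPDO 2. VEGFA stood at 433 and 68.0 CPM in PPDO 1 and at 331 and 68.1 CPM in PPDO 2. PDK1 differed least, with 185 and 87.8 CPM in PPDO 1 and 135 and 71.1 CPM in PPDO 2. These values chose the cells and carry no test.

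Nearly every hypoxia-high cell held molecules of several score genes. At least 1 UMI of all 6 was found in 92.1% of hypoxia-high cells of PPDO 1 and 86.2% of those of PPDO 2, against 32.8% and 36.6% of the other cells. The rule chose the cells by these same genes, so a difference in this direction follows from it and is no test. Across all cells kept, the Pearson correlation of the log values between pairs without PDK1 ran from 0.65 to 0.75 in PPDO 1 and from 0.58 to 0.72 in PPDO 2 (10 pairs each). Pairs with PDK1 ran from 0.28 to 0.36 and from 0.18 to 0.32 (5 pairs each). Cells of a library share their depth and chemistry, and these correlations are a description. Within hypoxia-high cells, where the score itself limits the range, the pairs without PDK1 ran from -0.20 to 0.15 in PPDO 1 and from -0.24 to 0.25 in PPDO 2.

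Because the score used these genes, each was also read in cells chosen anew by the other 5. Between 90.7% and 95.2% of the cells of PPDO 1, and between 87.8% and 93.2% of those of PPDO 2, were the same as in the main choice. In this setting ADM, at 828 and 83.3 CPM in PPDO 1 and 581 and 104 CPM in PPDO 2, was higher by 3.19 ± 0.27 (log2, SE, 2 libraries). EGLN1 was higher by 2.83 ± 0.28, VEGFA by 2.61 ± 0.26, NDRG1 by 2.57 ± 0.28, BNIP3 by 2.51 ± 0.28 and PDK1 by 1.15 ± 0.23. All 6 passed edgeR's quasi-likelihood test with the library as a block, with Benjamini-Hochberg adjusted p from 1.4e-10 for ADM to 0.0035 for PDK1. As background, 19.4% of genes were called in either direction in the fit without ADM, 14.9% without VEGFA, 14.8% without EGLN1, 13.8% without NDRG1, 15.8% without BNIP3 and 17.4% without PDK1. Without the library as a block, 0 of the 6 passed, and adjusted p ran from 0.090 to 0.13. The 6 genes had been put together with earlier results of these data known, so these tests are not independent evidence that they move together.

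Hypoxia-high cells held fewer molecules than the other cells. Their median was 20218 UMIs and 4199 features in PPDO 1, against 36553 UMIs and 6721 features in the other cells. In PPDO 2 it was 27136 UMIs and 5225 features against 35842 UMIs and 6516.5 features. The median mitochondrial share was 0.0933% against 0.430% in PPDO 1 and 0.237% against 0.409% in PPDO 2. This share rested on few genes, since ND3, ND5 and ND6 gave at least 99.65% of the mitochondrial UMIs of each sum and 8 of the 13 mitochondrial protein genes were listed at 0. Barcodes with a Scrublet doublet score over 0.25 numbered 3 and 8 among hypoxia-high cells and 112 and 82 among other cells. The PPDO libraries shared 23 barcodes. Lower depth and fewer features go with the class in both libraries. Alternatives therefore thinned each cell of at least 10000 UMIs to that number before the choice, kept only cells of 10000 to 30000 UMIs, or scaled to cells in place of UMIs. Thinning left out 522 cells of PPDO 1 and 176 of PPDO 2 as too shallow, of which 37 and 33 were hypoxia-high. Fewer molecules in the cell and less complete capture of them cannot be told apart here.

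Across the 21375 genes tested, 1379 genes (6.45%) were higher and 1870 genes (8.75%) were lower in hypoxia-high cells on the CPM scale (edgeR quasi-likelihood test, library as block, Benjamini-Hochberg adjusted at 0.05, 2 libraries). The cells were chosen on counts of the same libraries, so these tests describe which genes change along the score and do not show a separate cell type. The median log2 fold change of all genes was -0.02. A gene that did not pass is not shown to be unchanged. Thinning the cells to 10000 UMIs gave 1231 higher and 1748 lower genes, which include 1135 and 1521 of those genes. Cells of 10000 to 30000 UMIs gave 1694 and 2307, which include 1183 and 1576. Scaled to UMIs per cell, 137 genes (0.641%) were higher and 6230 genes (29.1%) were lower, and the median of all genes moved to -0.88. Fold changes below are on the CPM scale unless the cell is named as the scale. They include TMM normalization, which the printed CPM do not, and this raises each fold change above the ratio of the CPM. HILPDA, for example, stood at 23.1 and 24.6 CPM in hypoxia-high and other cells of PPDO 1 but had a positive log2 fold change of 0.33 in that library. A gene with a modest rise in CPM can hold as many or fewer molecules per cell, as TPI1, triose phosphate isomerase, does with 0.85 in CPM and -0.02 per cell.

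The counts of calls depended on single sums and on the pairing within a library. With group as the only term 0 genes passed, although 5127 genes had an unadjusted p under 0.05. Leaving out a sum, again with group as the only term, gave 0 calls without the hypoxia-high or the other cells of PPDO 1, 44 higher and 62 lower genes without the other cells of PPDO 2, and 2612 and 3110 without the hypoxia-high cells of PPDO 2. Of the 1379 higher and 1870 lower genes, 1370 and 1870 had the same direction without the hypoxia-high cells of PPDO 1, and 1364 and 1816 without its other cells, where fewer genes (17710) were tested. DESeq2 called 1510 higher and 1816 lower genes. Each p-value sets the change within libraries against how far the 2 libraries differ in that change. This spread was estimated in part from all genes together.

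Score genes aside, HIF targets had the largest share of higher genes among the lists of more than 2 genes used here. Of 52 genes listed, 49 were matched and tested, and 33 were higher and 0 lower, against 6.45% of all genes called higher. Their median log2 fold change was 1.19, against -0.02 over all genes. Their summed level was 8362 CPM in hypoxia-high and 3615 CPM in other cells of PPDO 1, and 8419 and 3806 CPM in PPDO 2. In UMIs per cell, 12 of the 49 were higher and 0 lower, against 0.641% and 29.1% of all genes, with a median of 0.33. The list was chosen with earlier results of these data known.

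TIMP3, an inhibitor of matrix metalloproteinases that stays bound to the matrix, was among the genes given for the label and not in the score. It stood at 447 CPM in hypoxia-high and 45.2 CPM in other cells of PPDO 1, and at 344 and 46.2 CPM in PPDO 2. It was higher by 3.42 ± 0.26 (adjusted p = 7.0e-05), which is 10.7-fold, and by 2.55 in UMIs per cell, where hypoxia-high cells held 9.76 and 9.84 UMIs and other cells 1.63 and 1.71. TIMP3 had been picked for the label with earlier results of these data known, so this value is no check of the label. TIMP3 lies on chromosome 5 from 12185816 to 12242599 within the span of SYN3 (12017741 to 12501995), and reads of overlapping genes can be hard to assign. Of its hypoxia-high UMIs, 99.9% fell in the gene itself in each library and the rest in an extension of its 3′ end.

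Targets that regulate the pathway came next. EGLN3, a prolyl hydroxylase that limits HIF, stood at 705 and 127 CPM in hypoxia-high and other cells of PPDO 1 and at 442 and 126 CPM in PPDO 2, and was higher by 2.46 ± 0.27 (adjusted p = 0.00029). ANKRD37, a small ankyrin repeat gene, stood at 138 and 30.9 CPM and at 227 and 41.4 CPM. It was higher by 2.62 ± 0.23 (adjusted p = 9.1e-05). DDIT4, which restrains mTORC1, stood at 1182 and 219 CPM in PPDO 1 and at 1216 and 295 CPM in PPDO 2, and was higher by 2.56 ± 0.26. In these 3 genes each hypoxia-high sum lay above each sum of other cells. How many of all genes separate in this way was not counted, here or for other genes, so this order is a description. KDM3A, a histone demethylase, and MXI1, an antagonist of MYC, were higher by 1.16 ± 0.24 and 1.23 ± 0.22.

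**Figure D2:**
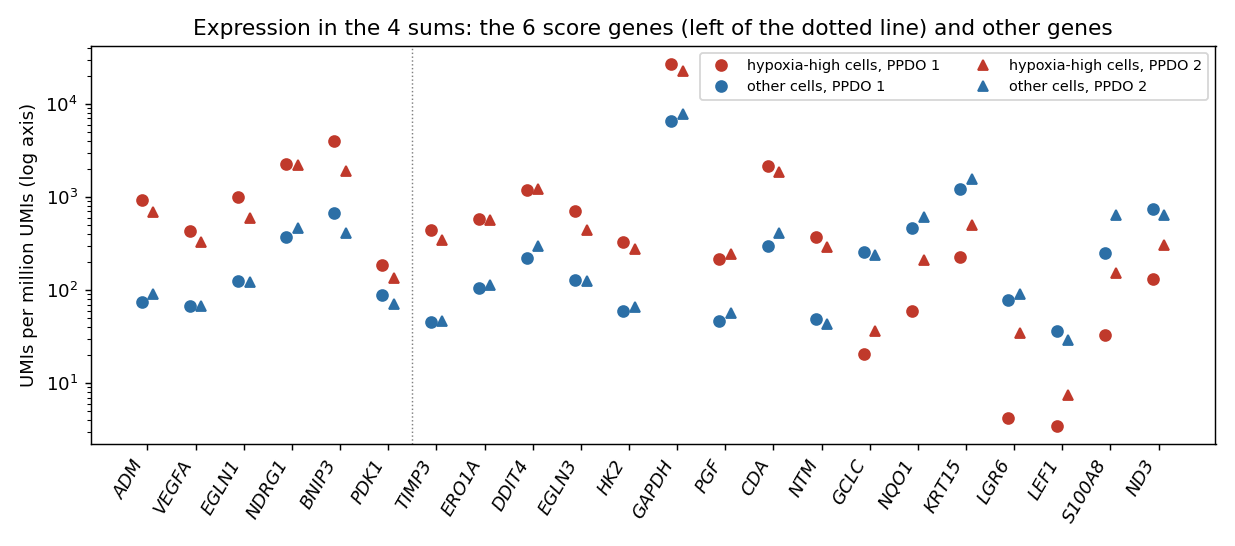
CPM (y axis, log scale) of 22 genes (x axis) in hypoxia-high cells (red) and other cells (blue) of PPDO 1 (circles) and PPDO 2 (triangles), with the 6 genes of the score left of the dotted line. For TIMP3 the red points lie at 447 and 344 and the blue at 45.2 and 46.2, while for GCLC the red points lie at 20.5 and 36.7 and the blue at 254 and 236.

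Several genes of the HIF list act on secreted proteins and the matrix. ERO1A, which oxidises disulfide bonds in the endoplasmic reticulum, stood at 581 and 104 CPM in PPDO 1 and at 570 and 112 CPM in PPDO 2, and was higher by 2.73 ± 0.24. P4HA1, a subunit of the collagen prolyl hydroxylase, stood at 421 and 112 CPM and at 379 and 105 CPM, and was higher by 2.20 ± 0.23. P4HA2, its sister subunit, and PLOD1, a collagen lysyl hydroxylase, were higher by 1.09 ± 0.22 and 1.27 ± 0.22, though P4HA2 stood at 2.51 against 2.81 UMIs per cell in PPDO 1. PLOD2, of the same list, had 0.38 and did not pass, with -0.48 in UMIs per cell. LOXL2, which crosslinks collagen, was higher by 1.71 ± 0.28 and differed between libraries, with 12.2 and 6.95 CPM in PPDO 1 and 45.2 and 11.7 CPM in PPDO 2. STC1 and STC2, secreted stanniocalcins, were higher by 2.47 ± 0.23 and 2.27 ± 0.29.

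CA12, a carbonic anhydrase of the cell surface and a HIF target, stood at 495 and 246 CPM in PPDO 1 and at 574 and 236 CPM in PPDO 2, and was higher by 1.46 ± 0.23. CA9, a widely used marker of hypoxic tumour tissue, stood at 67.2 and 46.1 CPM and at 74.9 and 48.5 CPM, and was higher by 0.90 ± 0.22 (adjusted p = 0.017) but by 0.04 in UMIs per cell. PPP1R3C, which targets a phosphatase to glycogen, stood at 105 and 15.8 CPM and at 59.8 and 14.5 CPM, and was higher by 2.71 ± 0.27, while GBE1, the glycogen branching enzyme, was higher by 1.15 ± 0.22 and GYS1, glycogen synthase, had -0.056 and did not pass. AK4, a mitochondrial adenylate kinase, ZNF395, a transcription factor, NDUFA4L2, a subunit-like protein of the respiratory chain, EFNA1, an ephrin, and MAFF, a small MAF factor, were higher by 1.30, 1.95, 1.19, 1.72 and 1.53.

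The 16 HIF targets that did not pass included commonly used ones. HILPDA, a lipid droplet protein, stood at 23.1 and 24.6 CPM in PPDO 1 and at 32.9 and 26.2 CPM in PPDO 2, with a log2 fold change of 0.44 (adjusted p = 0.23). PFKFB4, a relative of PFKFB3, had 0.46 (adjusted p = 0.18), FAM162A, a mitochondrial protein, 0.64 (adjusted p = 0.10) and JMJD6, a JmjC-domain hydroxylase, -0.32 (adjusted p = 0.52). SLC2A1, SLC2A3 and IGFBP3 could not be matched to a single gene by symbol, so the glucose transporters are not part of these counts.

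Of the oxygen-sensing machinery, 3 of 17 tested genes were higher and 0 lower, against 6.45% of all genes called higher. With cells of 10000 to 30000 UMIs 6 were higher and 2 lower, against 9.96% and 13.6%, and in UMIs per cell EGLN3 was higher and ELOB and RBX1, subunits of the VHL ligase, were lower, against 0.641% and 29.1%. The 3 genes were EGLN3, HIF3A, an inhibitory HIF subunit, and HIF1AN, the asparagine hydroxylase of HIF. HIF3A stood at 7.46 and 3.36 CPM in PPDO 1 and at 6.23 and 3.73 CPM in PPDO 2, and was higher by 1.26 ± 0.32 (adjusted p = 0.020). HIF1AN was higher by 0.96 ± 0.24 (adjusted p = 0.017), mostly through its 3′ extension. The extension held 49.8% and 51.2% of its hypoxia-high UMIs with log2 ratios of CPM of 1.20 and 1.09, against 0.28 and 0.26 for the gene itself. HIF1A, the main oxygen-regulated subunit, which is controlled largely at the protein level, stood at 370 and 248 CPM and at 302 and 261 CPM, with 0.71 ± 0.24 (adjusted p = 0.060). EPAS1, which encodes HIF2-alpha, had 0.51 (adjusted p = 0.22) and ARNT, the shared partner subunit, 0.66 (adjusted p = 0.086).

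Glycolysis genes followed the HIF targets. Of 21 genes listed, 19 were tested, and 11 were higher and 0 lower, against 6.45% of all genes called higher, with a median of 0.76. HK2, the hexokinase that commits glucose to the pathway, stood at 328 and 59.5 CPM in hypoxia-high and other cells of PPDO 1 and at 276 and 66.5 CPM in PPDO 2, and was higher by 2.58 ± 0.25 (adjusted p = 0.00011). PFKFB3, which makes the activator of phosphofructokinase and was counted with the HIF targets, stood at 86.4 and 20.5 CPM and at 115 and 19.7 CPM, and was higher by 2.63 ± 0.23. In both genes the hypoxia-high sums lay above those of other cells in each library.

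GAPDH was the most abundant of the list, with 26837 and 6525 CPM in PPDO 1 and 22718 and 7768 CPM in PPDO 2, and was higher by 2.11 ± 0.33 (adjusted p = 0.0020). GAPDH has many processed copies in mammalian genomes, which can share its reads. Without GAPDH the list summed to 9008 and 5008 CPM in PPDO 1 and to 9116 and 5227 CPM in PPDO 2, and so was higher in hypoxia-high cells of each library. ENO1, an enolase, stood at 4463 and 1854 CPM and at 4213 and 2008 CPM, and was higher by 1.49 ± 0.27. ENO2, its neuronal isoform, was higher by 2.18 ± 0.35, LDHA, which turns pyruvate into lactate, by 1.21 ± 0.24, and SLC16A3, which exports lactate, by 1.81 ± 0.23. HK1, the constitutive hexokinase, ALDOA, an aldolase, TPI1, triose phosphate isomerase, GPI, phosphoglucose isomerase, and PGK1, phosphoglycerate kinase, were higher by 1.28, 1.08, 0.85, 0.76 and 0.73. PKM, pyruvate kinase, had 0.69 (adjusted p = 0.065). In UMIs per cell 4 of the 19 were higher, HK2, GAPDH, ENO1 and ENO2, and 0 lower, against 0.641% and 29.1% of all genes, with a median of -0.11.

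**Figure D3:**
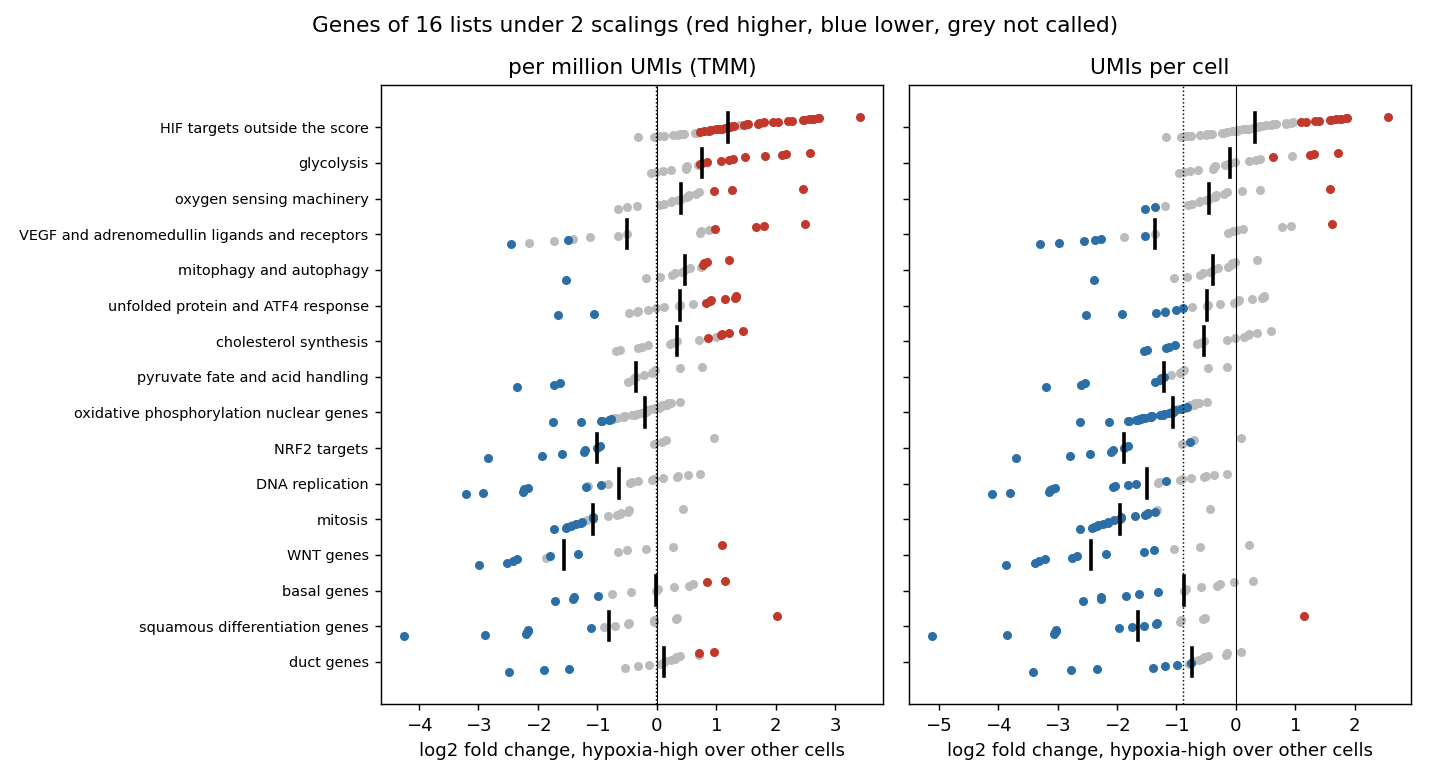
Log2 fold change of hypoxia-high over other cells (x axis) for the tested genes of 16 lists (y axis), in CPM on the left and in UMIs per cell on the right. Red points were called higher, blue points lower and grey points neither, bars are list medians and dotted lines the median of all genes, -0.02 and -0.88; the HIF target median moves from 1.19 to 0.33 and the glycolysis median from 0.76 to -0.11.

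Of 13 tested genes of pyruvate fate and acid handling, 0 were higher and 3 lower, against 6.45% and 8.75% of all genes. PDK2, a sister kinase of PDK1, stood at 5.60 and 39.9 CPM in hypoxia-high and other cells of PPDO 1 and at 7.94 and 19.4 CPM in PPDO 2, and was lower with -1.73 ± 0.32 (adjusted p = 0.0048). CA2, a cytosolic carbonic anhydrase, and CA4, a membrane-bound form, were lower with -2.35 ± 0.36 and -1.64 ± 0.51. In the hypoxia-high sums CA2 rested on 16 and 50 UMIs and CA4 on 17 and 63 UMIs. CA4 (adjusted p = 0.047) had -2.96 in PPDO 1 and -0.54 in PPDO 2. PDHA1, a catalytic subunit of pyruvate dehydrogenase, had -0.39 (adjusted p = 0.26).

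Of the nuclear genes of oxidative phosphorylation, 6 of 39 tested were lower and 0 higher, against 8.75% of all genes called lower, and their median was -0.19. These were ATP5MC1, a membrane subunit of ATP synthase (-1.75 ± 0.29), UQCRC1, UQCRQ and CYC1 of complex III (-1.28, -0.94 and -0.81), NDUFA4 of cytochrome c oxidase (-0.93) and NDUFS3 of complex I (-0.77). ATP5MC1 stood at 21.2 and 150 CPM in PPDO 1 and at 59.3 and 148 CPM in PPDO 2. Among mitochondrially encoded genes, 2 of 5 tested were lower, ND3 of complex I (-1.47 ± 0.29) and CYTB of complex III (-1.75 ± 0.40). ND5 and ND6, which carried most mitochondrial UMIs, had -0.74 (adjusted p = 0.093) and -0.74 (adjusted p = 0.059). Per cell, 28 of the 39 nuclear genes and 4 of the 5 mitochondrially encoded genes were lower, against 29.1% of all genes. After thinning 8 nuclear and 3 mitochondrially encoded genes were lower, against 9.86%. With cells of 10000 to 30000 UMIs 11 and 4 were lower, against 13.6%.

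The 13 genes of mitophagy and autophagy included 4 higher and 1 lower, against 6.45% and 8.75% of all genes, with BNIP3 counted elsewhere. In UMIs per cell 0 of them were higher and 1 lower, against 0.641% and 29.1% of all genes. BNIP3L, the sister of BNIP3, stood at 139 and 103 CPM in PPDO 1 and at 129 and 90.2 CPM in PPDO 2, and was higher by 0.80 ± 0.22 (adjusted p = 0.028). ULK1, the kinase that starts autophagy, was higher by 1.22 ± 0.24. SQSTM1 and OPTN, autophagy receptors, were higher by 0.85 and 0.78.

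Among ligands and receptors of the vascular signals, 4 of 15 tested genes were higher and 2 lower, against 6.45% and 8.75% of all genes. With cells of 10000 to 30000 UMIs 2 were higher and 2 lower, against 9.96% and 13.6%, and in UMIs per cell 1 was higher and 6 lower, against 0.641% and 29.1%. PGF, placental growth factor, a VEGF relative, stood at 216 and 46.2 CPM in PPDO 1 and at 245 and 56.9 CPM in PPDO 2, and was higher by 2.48 ± 0.23 (adjusted p = 0.00011). ANGPTL4, a secreted regulator of lipid use and vessels, stood at 47.9 and 17.1 CPM and at 47.5 and 17.1 CPM, and was higher by 1.80 ± 0.24. NRP1, a VEGF co-receptor, was higher by 1.66 ± 0.41 at low levels, with 1.13 and 0.802 CPM in PPDO 1 and 6.61 and 1.57 CPM in PPDO 2. Of the receptor partners, RAMP3, which with CALCRL forms a receptor of adrenomedullin, was higher by 0.98 ± 0.28, but by 0.11 in UMIs per cell. RAMP1, which with CALCRL forms the receptor of CGRP, was lower with -1.50 ± 0.34. CALCRL and RAMP2, the other partner for adrenomedullin, rested on 0 to 3 UMIs in the hypoxia-high sums. VEGFD was lower but rested on 1 and 4 UMIs in the hypoxia-high sums. NRP2, another co-receptor, had -0.66 (adjusted p = 0.13).

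Other matrix metalloproteinase genes and inhibitors did not follow TIMP3. Of 11 tested, 1 was higher (TIMP3) and 3 were lower, against 6.45% and 8.75% of all genes. MMP3, a stromelysin, stood at 241 and 1116 CPM in PPDO 1 and at 541 and 929 CPM in PPDO 2, and was lower with -1.18 ± 0.29 (adjusted p = 0.019). MMP13, a collagenase, was lower with -1.37 ± 0.36. MMP7, matrilysin, had 4 and 0 UMIs in the hypoxia-high sums and 2011 and 464 UMIs in the sums of other cells. TIMP1, an inhibitor that is secreted in soluble form, stood at 144 and 466 CPM and at 356 and 498 CPM, with -0.77 (adjusted p = 0.068).

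Genes of the unfolded protein response included 7 higher and 2 lower among 18 tested, against 6.45% and 8.75% of all genes. In UMIs per cell 0 were higher and 6 lower, against 0.641% and 29.1% of all genes. HSPA5, the main chaperone of the endoplasmic reticulum, stood at 63.8 and 27.6 CPM in PPDO 1 and at 46.0 and 26.0 CPM in PPDO 2, and was higher by 1.33 ± 0.24 (adjusted p = 0.0043). XBP1 and ATF4, transcription factors of the response, were higher by 1.34 ± 0.25 and 1.14 ± 0.24, and DNAJB9, HSP90B1, HERPUD1 and CALR, chaperones and degradation factors, by 1.31, 0.91, 0.90 and 0.83. The genes that were lower, SLC7A11 (-1.66 ± 0.28), the cystine transporter, and PSAT1 (-1.06 ± 0.23), an enzyme of serine synthesis, are known as ATF4 targets of amino acid supply.

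Of the NRF2 targets, genes of the defence against oxidants, 7 of 11 tested were lower and 0 higher, against 8.75% of all genes called lower, with a median of -1.01. The 4 that did not pass were HMOX1, TXN, FTL and GCLM, with 0.95, 0.086, 0.16 and -0.050. GCLC, the catalytic subunit that starts glutathione synthesis, stood at 20.5 and 254 CPM in hypoxia-high and other cells of PPDO 1 and at 36.7 and 236 CPM in PPDO 2, and was lower with -2.84 ± 0.26 (adjusted p = 9.1e-05). NQO1, a quinone reductase, stood at 59.9 and 466 CPM and at 209 and 611 CPM, and was lower with -1.93 ± 0.29. Its 3′ extension was level, at 33.2 and 35.1 CPM in PPDO 1 and 34.9 and 34.8 CPM in PPDO 2, and the gene itself stood at 26.7 and 431 CPM and at 174 and 576 CPM. TXNRD1, thioredoxin reductase, PRDX1, a peroxiredoxin, SRXN1, sulfiredoxin, and OSGIN1, a growth regulator, were lower with -1.59, -1.20, -1.01 and -0.95. Each hypoxia-high sum lay below each sum of other cells in GCLC, NQO1 and SLC7A11, and the share of all genes that do so was not counted.

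Heat shock genes and immediate early genes, which can rise when tissue is dissociated, showed 2 higher and 3 lower among 17 tested, against 6.45% and 8.75% of all genes. After thinning 1 was higher and 4 lower, against 6.95% and 9.86%, and with cells of 10000 to 30000 UMIs 4 were higher and 4 lower, against 9.96% and 13.6%. Scaled to cells, 0 were higher and 9 lower, against 0.641% and 29.1%. DNAJB1, a co-chaperone, and ZFP36, an RNA decay factor, were higher by 0.86 and 0.72. HSPA8, the constitutive HSP70, stood at 92.6 and 561 CPM in PPDO 1 and at 209 and 590 CPM in PPDO 2, and was lower with -1.73 ± 0.26. HSPH1, a large chaperone, and MYC, a growth regulator, were lower with -1.47 ± 0.28 and -1.48 ± 0.27. Against the same 6.45%, 2 of 9 p53 targets tested were higher, MDM2 and CDKN1A (0.85 and 0.76). Per cell 0 of the 9 were higher and 1 lower, against 0.641% and 29.1% of all genes, with MDM2 and CDKN1A at -0.016 and -0.10. After thinning 1 was higher, against 6.95%. Of 15 genes of cholesterol synthesis 5 were higher in CPM, against 6.45% of all genes. Among them were LSS, INSIG1, SC5D and CYP51A1 (1.45, 1.22, 1.07 and 0.86). Of these 15, 0 were higher and 5 lower in UMIs per cell, against 0.641% and 29.1% of all genes.

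Genes of the cell cycle were lower in part. Of 20 DNA replication genes tested 8 were lower and 0 higher, and of 19 mitosis genes 9 were lower and 0 higher, against 8.75% of all genes called lower, with medians of -0.63 and -1.08. After thinning 14 mitosis genes were lower, against 9.86% of all genes. With cells of 10000 to 30000 UMIs 14 mitosis genes were lower and 3 replication genes and 1 mitosis gene higher, against 13.6% of all genes called lower and 9.96% called higher. UHRF1, a methylation maintenance factor, stood at 0.309 and 7.12 CPM in PPDO 1 and at 1.18 and 8.32 CPM in PPDO 2, and was lower with -3.21 ± 0.42. DTL, a substrate receptor of a replication ligase, and MCM6, a helicase subunit, were lower with -2.93 ± 0.36 and -2.23 ± 0.28. UBE2C, AURKB and BUB1B, genes of mitosis, were lower with -1.74, -1.52 and -1.36. For the median cell the order differed between libraries, with 4.47 UMIs of both lists per 10000 UMIs in hypoxia-high and 4.06 in other cells of PPDO 1 and 4.02 and 4.18 in PPDO 2. Among cells at or under the library median of both lists, 1788 genes of all were called higher and 2111 lower, which include 1279 and 1581 of the calls over all cells.

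Among WNT genes 6 of 12 tested were lower and 1 higher, against 8.75% and 6.45% of all genes, with a median of -1.56. LGR5 and LGR6, receptors for R-spondin that mark progenitor cells in several epithelia, were lower with -2.51 ± 0.32 and -2.43 ± 0.47. LGR6 stood at 4.23 and 78.3 CPM in PPDO 1 and at 34.7 and 91.8 CPM in PPDO 2, so its difference was larger in PPDO 1. LEF1, a transcription factor of the pathway, stood at 3.47 and 36.8 CPM and at 7.43 and 29.0 CPM, and was lower with -2.35 ± 0.32. AXIN2 and ZNRF3, negative regulators of the pathway, were lower with -1.80 and -1.32. NOTUM, a secreted inhibitor, rested on 2 and 3 UMIs in the hypoxia-high sums. RNF43, a ligase that removes WNT receptors, was higher by 1.09 ± 0.24.

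Markers of cell type and state were read next, because hypoxia-high cells could differ from other cells in makeup. Among basal genes 2 of 13 tested were higher and 4 lower, against 6.45% and 8.75% of all genes. After thinning 1 was higher and 4 lower, against 6.95% and 9.86%, and in UMIs per cell 0 were higher and 6 lower, against 0.641% and 29.1%. KRT15, a basal keratin, stood at 227 and 1227 CPM in PPDO 1 and at 505 and 1559 CPM in PPDO 2, and was lower with -1.71 ± 0.25. NGFR, DST and TP63 were lower with -1.41, -1.39 and -0.99, and KRT5 had -0.76 (adjusted p = 0.094). ITGA6 and LAMA3, of the adhesion to the basement membrane, were higher by 0.84 and 1.15, and had -0.025 and 0.29 in UMIs per cell. Squamous differentiation genes were lower in 7 of 16 and higher in 1, against the same shares, with S100A12, KRTDAP and S100A8 at -2.18, -2.20 and -2.17. For S100A8 the gene itself was lower, at 21.4 and 247 CPM in PPDO 1 and 76.3 and 618 CPM in PPDO 2, while its 3′ extension was higher, at 11.6 and 1.52 CPM and at 78.1 and 26.2 CPM. KRT4 and KRT1, keratins of stratified epithelium, DSG1, a desmosomal cadherin, and KRT23 were lower with -4.25, -2.88, -2.17 and -1.10. IVL, involucrin, which is crosslinked in squamous cells, stood at 133 and 32.0 CPM and at 216 and 85.1 CPM, and was higher by 2.02 ± 0.26 (adjusted p = 0.00073).

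Duct genes gave 2 higher and 3 lower of 16 tested, against 6.45% and 8.75% of all genes, and 0 higher and 1 lower after thinning to 10000 UMIs, against 6.95% and 9.86%. Scaled to cells, 0 were higher and 7 lower, against 0.641% and 29.1%. PDX1, a pancreatic transcription factor, and CLDN4, a tight junction protein, were higher by 0.96 and 0.72, and WFDC2, CFTR, the chloride channel of duct cells, and SCTR, the secretin receptor, were lower with -1.90, -2.48 and -1.47. CFTR was at or below 1.13 CPM in all 4 sums, and CFTR rested on 6 and 2 and SCTR on 9 and 9 UMIs in the hypoxia-high sums. EPCAM, an epithelial surface protein, stood at 146 and 139 CPM in PPDO 1 and at 94.6 and 103 CPM in PPDO 2, with 0.30 (adjusted p = 0.41). The whole duct list summed to 2429 and 2781 CPM in PPDO 1 and to 1966 and 2035 CPM in PPDO 2. KRT19 and MUC1 could not be matched. GPNMB, a lysosomal glycoprotein, and MMP3, taken as a pair for another state of these cultures, were both lower in hypoxia-high cells, GPNMB with -0.97 ± 0.23. The share of all genes called lower was 8.75%. With cells of 10000 to 30000 UMIs 1 of the 2 was lower, against 13.6% of all genes.

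Markers of endothelial, stellate, acinar and endocrine cells were low in both groups of PPDO cells, whereas those of immune cells were not. In the counts that follow, the shares of all genes called higher and lower were again 6.45% and 8.75%. The 10 matched endothelial markers summed to 29.8 and 26.7 CPM in PPDO 1 and to 25.4 and 21.6 CPM in PPDO 2, and 0 of 9 tested were called. The 10 matched stellate and fibroblast markers summed to 2.89 to 10.0 CPM, and 0 of 8 tested were called. Acinar markers summed to 35.6 to 59.3 CPM, and 1 of 4 tested was called, RBPJL with 1.22 ± 0.23. Of its hypoxia-high UMIs 99.8% and 99.9% fell in the extension of its 3′ end. The gene itself held 3 and 2 UMIs against 246 and 169 in other cells, so the call rests on the extension. Endocrine markers summed to 5.60 to 8.32 CPM, with PCSK1 called with 1.28 ± 0.36 as 1 of 5 tested and GCG at 0. After thinning, with cells of 10000 to 30000 UMIs and in UMIs per cell, 0 endocrine markers were called higher. Immune markers summed to 4488 to 6318 CPM, nearly all from CD74, without which they summed to 86.5 and 17.2 CPM in PPDO 1 and to 42.6 and 15.9 CPM in PPDO 2. The rest was mostly CD68, a lysosomal protein of macrophages, which was higher by 2.43 ± 0.32 as 1 of 5 tested, while LYZ was at 0.

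Beyond the lists, the 12 genes with the largest differences in each direction were taken by rule. Higher were NMB, a neuromedin peptide (3.61 ± 0.36), CALY, a vesicle protein of neurons (3.56 ± 0.32), TIMP3, NTM, a cell adhesion protein (3.15 ± 0.24), KCNMA1, a potassium channel (3.13 ± 0.29), SYCP2, a meiotic chromosome protein (2.91 ± 0.24), CDA, cytidine deaminase (2.85 ± 0.29), DTNA, a dystrobrevin (2.82 ± 0.27), ERO1A, PPP1R3C, GPR137C (2.66 ± 0.23) and PFKFB3. CDA was the most abundant of them, at 2157 and 295 CPM in PPDO 1 and at 1872 and 411 CPM in PPDO 2. NTM stood at 374 and 49.3 CPM and at 292 and 43.3 CPM. NMB stood at 87.6 and 5.41 CPM in PPDO 1 and at 126 and 21.3 CPM in PPDO 2. All 12 were also called higher in UMIs per cell, against 0.641% of all genes. They were taken for large fold changes, and this scale moves all genes down by a similar amount, so the count is no independent check.

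For GPR137C, 99.7% of the hypoxia-high UMIs of PPDO 1 and 99.6% of those of PPDO 2 fell in the extension of its 3′ end, and the gene itself held 12 and 13 UMIs. GPR137C lies 4897 bases from ERO1A on Sscrofa11.1, and whether these reads belong to GPR137C was not tested. SYCP2 lies 1245 bases from PPP1R3D, and 14.5% of its hypoxia-high UMIs in PPDO 1 and 3.11% in PPDO 2 fell in the extension.

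Lower were PIK3R3, a regulatory subunit of PI3 kinase (-4.23 ± 0.37), NEK10, a kinase (-3.28 ± 0.40), CMAH, which makes the sialic acid Neu5Gc (-3.16 ± 0.34), NPM3 (-3.00 ± 0.43), PRICKLE2, of planar polarity (-2.95 ± 0.33), HLCS, which attaches biotin (-2.94 ± 0.39), GCLC, TNIP3 (-2.81 ± 0.31), PINX1 (-2.74 ± 0.34), RAI14 (-2.70 ± 0.38), PIR (-2.68 ± 0.41) and CACHD1 (-2.61 ± 0.34). PIK3R3 stood at 0.790 and 30.2 CPM in PPDO 1 and at 1.05 and 15.5 CPM in PPDO 2. CMAH stood at 1.89 and 37.4 CPM and at 5.31 and 35.4 CPM. In each of these 12 genes the log2 fold change was further from 0 in PPDO 1, and this difference between libraries was not tested. It is not particular to them. The 6 score genes and the 12 higher genes also changed more in PPDO 1, except PFKFB3, with 2.50 in PPDO 1 and 2.76 in PPDO 2. How many of all genes do so was not counted.

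Since the threshold cut a continuum, levels were followed over 20 equal bins of score rank in each library. The HIF targets outside the score summed to 2534 CPM in the lowest bin and 9595 CPM in the highest of PPDO 1, and to 2604 and 9946 CPM in PPDO 2. The glycolysis list went from 5801 to 38748 CPM and from 6091 to 37119 CPM. TIMP3 went from 14.2 to 550 CPM and from 7.82 to 488 CPM, and was still at 20.1 and 31.2 CPM in bin 11. GCLC went the other way, from 301 to 14.6 CPM and from 321 to 28.5 CPM, with its highest values in bins 3 and 2. LGR6 fell from 164 to 2.22 CPM in PPDO 1 and from 138 to 30.1 CPM in PPDO 2. Median depth went from 38280 to 19242 UMIs and from 33628 to 25249 UMIs over the same bins. KRT5, a basal keratin, was highest in the middle, at 6833 CPM in bin 13 of PPDO 1 and 9107 CPM in bin 10 of PPDO 2. GPNMB and MMP3 together were highest in bin 11, at 1576 and 1251 CPM. They stood at 624 CPM in the lowest and 116 CPM in the highest bin of PPDO 1, and at 556 and 525 CPM in PPDO 2. These series share their cells with the score and are a description.

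**Figure D4:**
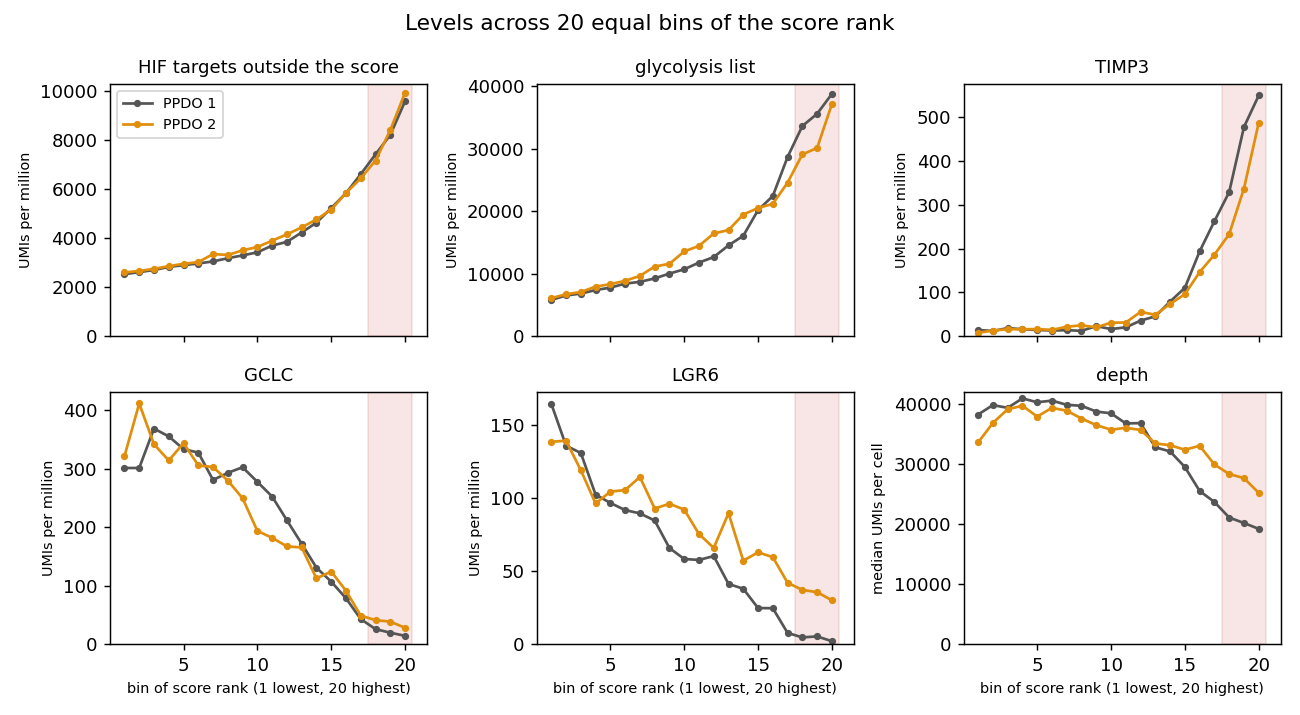
CPM (y axes, from 0) of the HIF targets outside the score, the glycolysis list, TIMP3, GCLC and LGR6, and median UMIs per cell, over 20 equal bins of score rank (x axis, 20 highest) in PPDO 1 (grey) and PPDO 2 (orange); the shaded bins hold the hypoxia-high cells. TIMP3 goes from 14.2 to 550 and from 7.82 to 488, and GCLC from 301 to 14.6 and from 321 to 28.5.

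The place of hypoxia-high cells among the states of PPDO was described with clusters made without the 6 score genes. Cluster 1, led by TIMP3, NTM, DDIT4, SYCP2, P4HA1, GAPDH, HK2 and ERO1A, held 88.1% of the hypoxia-high cells of PPDO 1 and 66.9% of those of PPDO 2. Of this cluster 59.9% of cells in PPDO 1 (95% exact binomial interval 57.7 to 62.0%) and 52.1% in PPDO 2 (49.4 to 54.7%) were hypoxia-high. Cluster 3, led by IGFBP6, PTGS2, CAV1 and PDPN, held 3.68% of the hypoxia-high cells of PPDO 1 and 22.5% of those of PPDO 2. Cluster 5, led by SLPI, DMKN and S100A8, held 7.73% and 5.72%, and 24.9% and 12.6% of its cells were hypoxia-high. In cluster 0, led by CXCL14 and holding LGR6 among its leading genes, 0 of 2038 cells of PPDO 1, which the exact interval bounds at 0.181%, and 2 of 1526 cells of PPDO 2 were hypoxia-high. Intervals cover counting error, and the clusters are a description without a test.

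**Figure D5:**
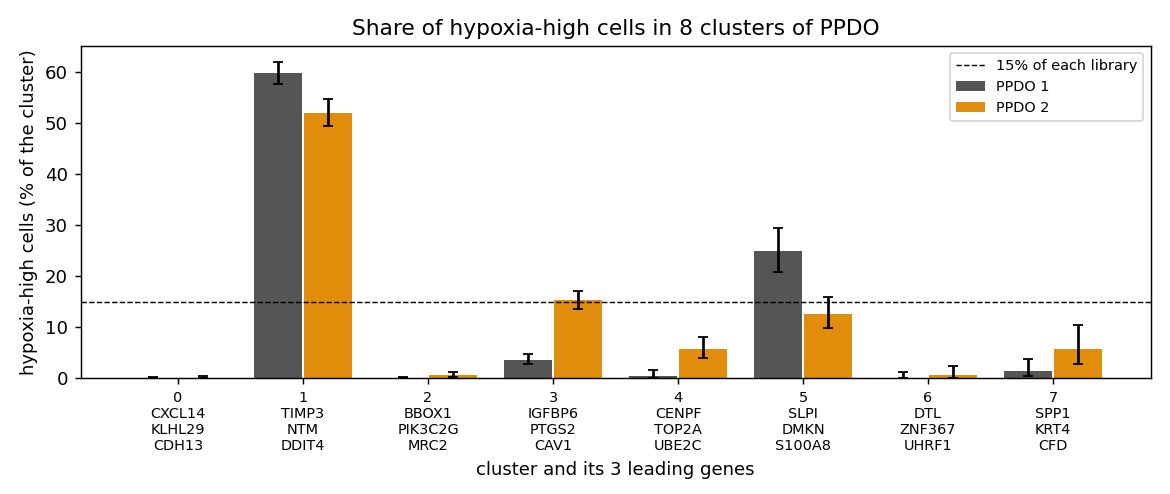
Hypoxia-high cells as a percentage of each cluster (y axis) for 8 clusters with at least 50 cells (x axis, number and 3 leading genes) in PPDO 1 (grey) and PPDO 2 (orange), with 95% exact binomial intervals; the dashed line marks 15%. Cluster 1 reaches 59.9% and 52.1%, and cluster 5 reaches 24.9% and 12.6%.

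Primary pancreas was scored the same way after each cell was thinned to 3000 UMIs. At this depth the highest 15% of PPDO cells began at a score of 1.79 in PPDO 1 and 1.51 in PPDO 2. In primary pancreas 0 of 5082 cells and 0 of 4261 cells reached the lower of these values, which allows a share of up to 0.0590% and 0.0704%. Among primary cells with at least 10 UMIs in the duct markers CFTR, SCTR, PKHD1 and SLC4A4 together, it was 0 of 2121 and 0 of 1304, which allows up to 0.141% and 0.230%. These duct-marked cells had 4.87 and 0.112 CPM of ADM, 71.4 and 45.6 CPM of NDRG1 and 24.5 and 27.1 CPM of BNIP3 in primary pancreas 1 and 2, below the other cells of PPDO. Their VEGFA, at 128 and 140 CPM, was above the 68.0 and 68.1 CPM of the other PPDO cells and below that of hypoxia-high cells. Their EGLN1, at 98.2 and 162 CPM, was below the 124 and 123 CPM of the other PPDO cells in primary pancreas 1 and above them in primary pancreas 2. TIMP3 stood at 485 and 131 CPM in them, and at 622 and 72.9 CPM over all cells kept of primary pancreas 1 and 2. Free RNA was not removed, so how much of the TIMP3 of duct-marked cells came from other cells was not tested. Groups differ in culture, sort and depth, and no test was run.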

How the data were processed

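The deposited matrices held raw counts of UMIs per feature and barcode, made by the authors with Cell Ranger 7.1.0 from 10x Chromium 3′ v3.1 libraries of sorted live cells, against an in-house pig annotation. The other deposited tables named barcodes and features (unit recorded as other). Free RNA had not been removed from these counts. Features of a gene, including 3′ extensions (25770 of 56060 features), were summed to 30282 genes, of which 12861 had no symbol. PPDO barcodes were kept with 1000 to 9000 features and at most 3% mitochondrial UMIs, the limits of the study, which applied a floor of 600 to a line the labels do not name. Of 9853 and 8071 barcodes, with 366263504 and 316018482 UMIs, 90.2% and 90.9% were kept. Doublets (Scrublet in Scanpy 1.11.5) were kept in PPDO and left out as an alternative. Primary barcodes were kept under 8% mitochondrial UMIs and 9000 features, over 400 features in primary pancreas 1 and over 800 features and 3000 UMIs in primary pancreas 2, with Scrublet scores up to 0.25 and 0.15 (89 and 154 barcodes removed). Of the primary cells kept, 589 of 5671 and 0 of 4261 were too shallow to thin to 3000 UMIs.

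UMIs were summed per library over hypoxia-high and other cells, since cells are not replicates, and the 4 sums were compared with edgeR 4.0.16 (TMM, filterByExpr, glmQLFit and glmQLFTest, library as a block, two-sided, Benjamini-Hochberg at 0.05). Both sums of a library come from the same culture, which is the basis of the block. The score genes have no test in this comparison. The SE is the absolute log2 fold change divided by the square root of F. DESeq2 1.42.0 was an alternative. The fits were tested on simulated data. Clustering used 2000 variable genes without the score genes, 20 components, 15 neighbours and Leiden (leidenalg 0.10.2) at resolution 0.5. Genes were named from lists, and by a rule that took the 12 largest fold changes in each direction among called genes with a unique symbol, at least 20 CPM in the higher group and the same direction in both libraries. A few genes of the lists are counted but not reported here by name. Members and lists were chosen with earlier results of these data known. Intervals are Clopper-Pearson at 95% and, like the limits from a count of 0 (3 counts), cover counting error only.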

Additional observations from a re-analysis of the deposited data

How the results depend on the processing

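The counts of genes depended on the block and on single sums. With no replicate block, 0 genes were called higher and 0 lower, and 0 HIF targets, 0 glycolysis genes and 0 of the 6 score genes left out in turn passed. Leaving out each sum in turn gave 0 to 2612 higher and 0 to 3110 lower genes, 0 to 33 HIF targets and 0 to 12 glycolysis genes, with group as the only term and the lone sum of a group assumed to vary like the other group. A library alone gives fold changes without a test, and 162 of 162 named genes kept their direction in each. The genes taken by rule had to do so, and called genes come from a fit of the same libraries. This count is therefore no independent check. Taking the highest 25% of cells gave 2541 higher and 2884 lower genes. Scaling to UMIs per cell, chosen after seeing the data, gave 137 higher and 6230 lower genes, 12 HIF targets and 4 glycolysis genes. DESeq2, RLE normalization, no low-count filter, the highest 10%, thinning, SD-scaled score genes, the floor of 600 features, removal of doublets, low-cycling cells, and cells of 10000 to 30000 UMIs (also chosen after seeing the data) each left these 4 counts within 1.5 times of the reported ones, and those of them run on the left-out score genes (RLE, highest 10% and 25%, thinning) called 6 of 6. In UMIs per cell 22 of these 162 genes turned, none called in that direction: EPCAM -0.57, HILPDA -0.43, PFKFB4 -0.40, EPAS1 -0.36, FAM162A -0.23, ARNT -0.21, PKM -0.18, HIF1A -0.15, ZFP36 -0.15, CLDN4 -0.15, PGK1 -0.13, GPI -0.11, CDKN1A -0.10, OPTN -0.085, BNIP3L -0.070, CALR -0.031, ITGA6 -0.025, TPI1 -0.020, SQSTM1 -0.017, MDM2 -0.016, CYP51A1 -0.0068 and DNAJB1 -0.0025. Genes of the lists outside the 162 turned too, among them TXN, at -0.78 and called lower, and FTL, at -0.71 and not called. This follows from the scale, which moved the median of all genes to -0.88. EPCAM also turned without the hypoxia-high cells of PPDO 1, and over the 4 sums left out in turn it ran from -0.13 to 0.62.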
